A study of Canis lupus familiaris with 8 samples.

Results

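The genes that take up, activate and oxidise fatty acids, together with targets of the peroxisome proliferator-activated receptors (PPARs), were examined in heart RNA of 8 male dogs weighing 23 to 27 kg. Of 50 gene names listed for this route, 30 genes had at least 1 probe set with a single gene symbol, out of 6540 such genes on the Affymetrix canine array. Each gene was read from its brightest probe set by mean signal over the 8 arrays, 1 array per dog. The other names were not analysed here. In the HHcy group (dogs 5 to 8) methionine was given with the drinking water during 2 weeks to bring about hyperhomocysteinemia, an excess of the amino acid homocysteine in blood. The design sets these against a control group (dogs 1 to 4), and RNA was taken at 2 weeks in both. The labels call the tissue cardiac and name no chamber, breed, age or homocysteine level. The series title asks how hyperhomocysteinemia alters the substrates used by the heart.

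A working heart draws most of its energy from fatty acids. They are freed from lipoproteins at the vessel wall, taken up across the cell membrane, bound in the cytosol, joined to coenzyme A and carried into mitochondria on carnitine. There, beta-oxidation removes acetyl-CoA in repeated rounds of dehydrogenation, hydration, a further dehydrogenation and thiolysis, and electron transfer flavoprotein passes electrons on to the respiratory chain. PPAR-alpha (PPARA), with its coactivator PGC-1 alpha (PPARGC1A), responds to fatty acids and switches on many genes of this route.

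One array stood apart before any gene was compared. On HHcy 6 the 11 cardiomyocyte markers found summed to a signal of 17166, while the sums on the controls were 216321 to 334317 and those on HHcy 5, 7 and 8 were 227360 to 257870. No marker was at 0. The lowest of the 11 there were troponin T (TNNT2), at 24.5, and the ventricular light chain MYL3, at 27.4. The highest was MYH7, at 6889 against 24557 to 41458 on the controls. The 4 smooth muscle markers found summed to 63167 on HHcy 6 and to 3284 to 11598 on the controls, and the 6 adipocyte markers found to 48801 and 4979 to 6169. Most of the adipocyte sum on HHcy 6 came from SCD and RBP4, at 21657 and 21115. Not every marker of these lists was high there. The adipocyte marker LIPE read 174, against 124 to 265 on the controls, and the smooth muscle marker SMTN 2907, against 1670 to 4772. The sum of the fibroblast markers was above every control on HHcy 5, 6 and 7. The 6 found summed to 38247, 52138, 44822 and 19220.4 on HHcy 5 to 8 and to 12954 to 19347 on the controls. Of 5 tested, 4 were higher at an unadjusted p under 0.05 in limma, beside 11.9% of all probe sets, and 0 at an adjusted one, beside 0.0979%. COL3A1 went the other way, with a log2 fold change (HHcy minus control) of -0.48. It read 154, 169, 219 and 12.1 on HHcy 5 to 8 and 70.3 to 317 on the controls. The macrophage markers summed to 7175 to 10636 on the controls and 20028, 27003, 20130.5 and 13856 on HHcy 5 to 8, above every control on each. The macrophage marker C1QA went the other way on HHcy 6, at 246 against 288 to 474 on the controls. The library labelled as cardiac tissue of HHcy 6 thus held little of the transcripts that define heart muscle. RNA quality also differed: the actin 3'/5' signal ratio, which rises as RNA is degraded, was 599.6 for HHcy 6, 15.3 for HHcy 5 and 0.378 to 2.67 elsewhere. The GAPDH ratio put these arrays in the opposite order, at 10.5 for HHcy 6 and 17.2 for HHcy 5, with 1.46 to 5.14 elsewhere. In tissue RNA, fewer cells of a type and less RNA per cell cannot be told apart. Apart from the values given with and without these arrays, the part of tissue make-up and RNA quality in the results was not tested.

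**Figure D1:**
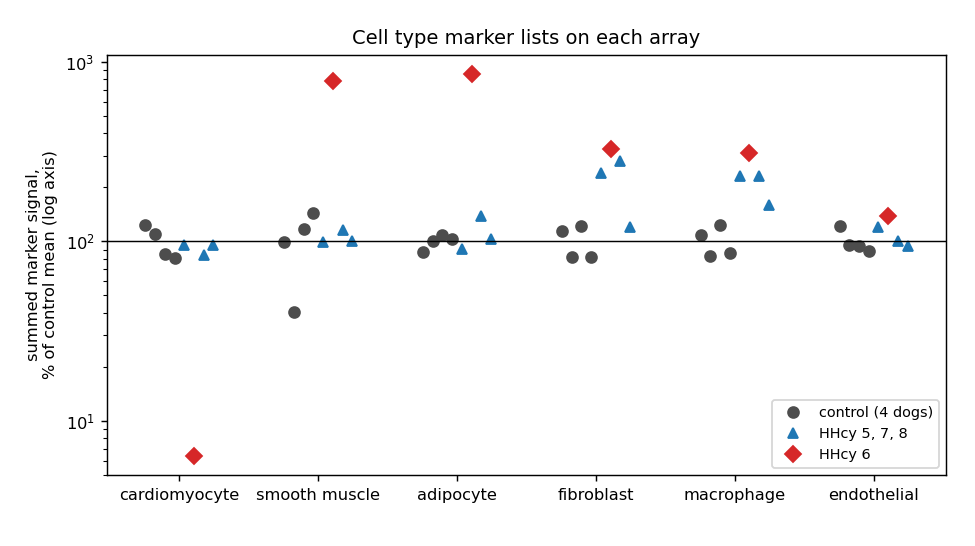
Summed signal of lists of cell type markers on each array, as a percentage of the mean of the 4 controls on a logarithmic axis, with 1 point per array. HHcy 6 lies at 6.38% of the control mean for cardiomyocyte markers and at 782% and 861% for smooth muscle and adipocyte markers, and the macrophage sums of all 4 HHcy arrays lie above every control.

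None of the 30 genes passed an adjusted p of 0.05 in limma, a linear model fitted to log2(signal + 24) of every probe set bright enough to test. Over the whole array 14 of 14301 probe sets passed (0.0979%), 14 higher and 0 lower in HHcy, a number that ran from 3 (without control 2 or control 4) to 31 (without HHcy 8) with 1 array left out. All 30 genes were bright enough to be tested, and the lowest adjusted p among them was 0.171, for HADH. At an unadjusted p under 0.05 in limma, 3 of the 30 were lower, HADH, CPT2 and VLDLR, and 0 were higher. The background at that level was 5.94% of probe sets lower, 11.9% higher and 17.8% in either direction, so 3 of 30 is not a share that stands out. No gene had groups free of overlap, against 3.89% of all probe sets lower, 7.49% higher and 11.4% in all.

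The centre of the group lay lower than that of the array. The median log2 fold change (HHcy minus control) of the 30 genes was -0.30, beside 0.15 over all probe sets tested, and 21 of the 30 lay below 0, beside 5723 of 14301. With quantile scaling 20 lay below 0, and with each array set to the same median 28 did, where the median of all probe sets moved to -0.18. The 30 genes are bright ones, at a median brightness percentile of 91.96, and no background of equal brightness was used.

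HHcy 6 held much of that shift. As deviations from the mean of the controls on the log2 scale, the median of the 30 genes was -0.83 on HHcy 6, -0.15 to -0.0052 on the remaining HHcy arrays and -0.27 to 0.14 on the controls. It was the lowest of the 8 arrays for 14 of the 30 genes, beside 17.9% of all probe sets, and control 2 was the lowest for 6, beside 20.3%. On HHcy 6, 16 genes lay under every control (background 23.2%) and 3 over every control (background 45.6%). The same counts were 8 under and 6 over on HHcy 5 (background 20.2% and 35.1%). They were 5 and 6 on HHcy 7 (21.8% and 22.4%) and 5 and 3 on HHcy 8 (17.2% and 25.7%).

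Without HHcy 6 the median log2 fold change of the 30 genes was -0.099, beside 0.10 for all probe sets, and 18 lay below 0. Again none passed the adjusted threshold in limma, which 0.126% of probe sets did. At an unadjusted p under 0.05, HADH, CPT2 and VLDLR were lower and PLIN2 was higher in that fit, beside 6.27% of probe sets lower, 8.50% higher and 14.8% in all. Groups without overlap were found for 0 of the 30 genes, beside 5.94% of probe sets lower and 8.97% higher. When the model held the 3'/5' ratio of each array, the median was 0.042, beside 0.067 for all probe sets. In that fit 0 of the 30 had an unadjusted p under 0.05 in limma, beside 5.48% of all probe sets. The ratio goes partly with the group: its mean log2 was -0.43 to 1.51 on the controls and 4.02, 6.31, 1.89 and 1.29 on HHcy 5 to 8. It was highest on HHcy 6, the array low in cardiomyocyte markers. Values from this fit therefore cannot tell RNA quality apart from group or tissue make-up.

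**Figure D2:**
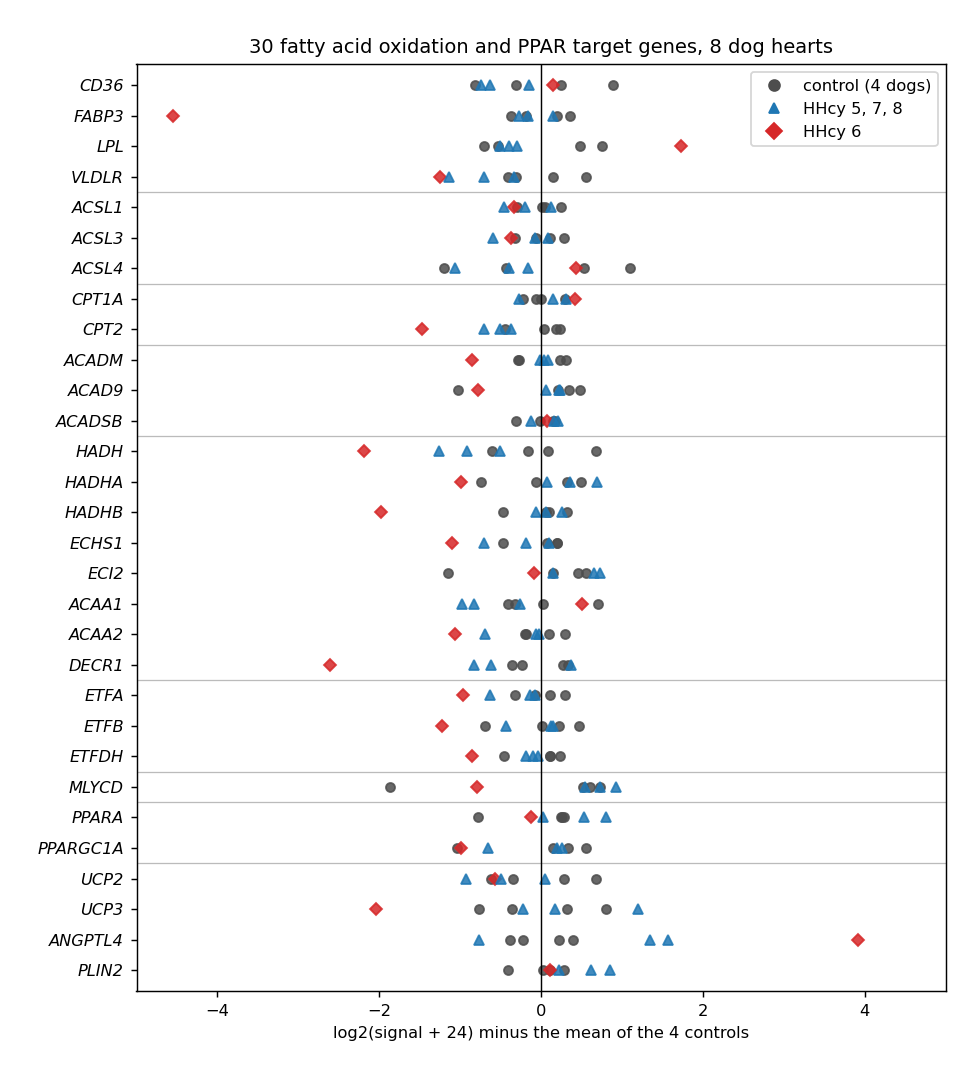
Each of the 30 genes on each array, as log2(signal + 24) minus the mean of the 4 controls, grouped by role. HHcy 6 lies left of every control for 16 genes, farthest for FABP3, and far to the right for ANGPTL4.

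Uptake and binding were represented by 4 genes, of which VLDLR had the lowest p. VLDLR, a receptor for triglyceride-rich lipoproteins, had signals of 484, 650.2, 321 and 346 in controls 1 to 4 and of 257, 168, 183 and 339.7 in HHcy 5 to 8. HHcy 5, 6 and 7 lay under every control and HHcy 8 among them. The log2 fold change was -0.86 ± 0.32 (SE, 95% interval -1.55 to -0.16), a 1.81-fold lower level that did not pass (limma adjusted p 0.212, unadjusted p 0.0196). It was -0.73 without HHcy 6 (limma adjusted p 0.324) and -0.49 with the 3'/5' ratio in the model (limma adjusted p 0.933).

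FABP3, the fatty acid binding protein of heart cytosol, had signals of 36730.3, 32823, 25232 and 22222 in controls 1 to 4 and of 31815, 1205, 23819 and 25576 in HHcy 5 to 8. HHcy 6, at 4.12% of the control mean, was the one array outside the control range. The log2 fold change was -1.21 ± 0.83 (SE, limma adjusted p 0.449) with all arrays and -0.094 ± 0.20 (SE, 95% interval -0.53 to 0.34) without HHcy 6. A second FABP3 probe set gave 11788, 19515, 7852 and 9856 in controls 1 to 4 and 3823, 507, 5464 and 9607 in HHcy 5 to 8. On it HHcy 5 and HHcy 7 too lay under every control, and its log2 fold change was -1.84 ± 0.71 (SE, limma adjusted p 0.223).

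CD36, a membrane protein that takes up fatty acids, had signals of 279 to 962 in controls and 296 to 567 in HHcy, every HHcy value lying inside the control range, and a log2 fold change of -0.34 ± 0.37 (SE, limma adjusted p 0.634). LPL, the lipase that frees fatty acids from lipoproteins, read 1339.8 on HHcy 6, 265 to 310.1 on the remaining HHcy arrays and 228 to 670.4 in controls. Its log2 fold change was 0.13 with all arrays and -0.40 without HHcy 6 (limma adjusted p 0.908 and 0.615). The direction of LPL turned under 8 of 19 alternative settings, and its other probe sets gave -0.88 and -0.23.

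**Figure D3:**
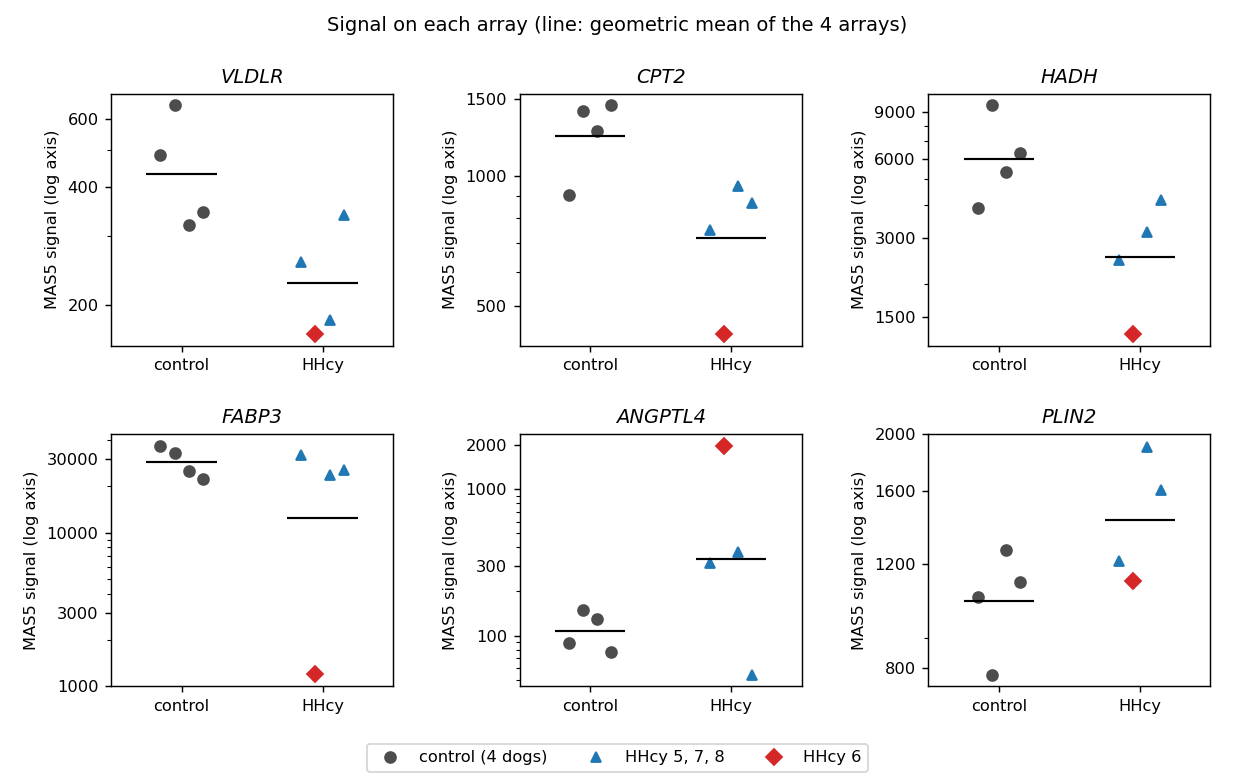
Signals of VLDLR, CPT2, HADH, FABP3, ANGPTL4 and PLIN2 on each array, on logarithmic axes that do not start at 0, with a line at the geometric mean of each group. HADH, CPT2 and VLDLR each have 3 of 4 HHcy arrays under every control, while FABP3 has 1.

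The acyl-CoA synthetases join fatty acids to coenzyme A, and the 3 listed for this route had fold changes below 0 that did not pass. ACSL5, read with the other genes of fatty acid metabolism, went the other way, at a log2 fold change of 0.71 (limma adjusted p 0.222). ACSL6, also read there, was too dim to be tested. ACSL1, the main form in heart, had signals of 9472, 7628, 9663 and 11094 in controls 1 to 4 and of 10236, 7462, 8135 and 6847 in HHcy 5 to 8. HHcy 6 and HHcy 8 lay under the lowest control, control 2. For ACSL1 the log2 fold change was -0.22 ± 0.23 (SE, 95% interval -0.71 to 0.28, limma adjusted p 0.623), and its other tested probe sets ran from -0.74 to 0.54. ACSL3 had -0.24 (limma adjusted p 0.641), and ACSL4, which prefers arachidonic acid, had -0.30 (limma adjusted p 0.790). ACSL4 was dim, at 27.4 to 229.6 in controls, so its fold change is understated by the 24 units added.

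Of the carnitine shuttle, CPT1A and CPT2 were measured. CPT1B, of the same family as CPT1A, had no probe set with a single gene symbol and was not read. CPT2, the inner-membrane enzyme that returns the acyl group from carnitine to coenzyme A, had signals of 904, 1411, 1265 and 1455 in controls 1 to 4 and of 750.3, 430.5, 948 and 865 in HHcy 5 to 8. HHcy 5, 6 and 8 lay under every control, and HHcy 7 lay between control 1 and the rest. Its log2 fold change was -0.77 ± 0.29 (SE, 95% interval -1.41 to -0.12), a 1.70-fold lower level that did not pass (limma adjusted p 0.223, unadjusted p 0.0240). It was -0.53 without HHcy 6 (limma adjusted p 0.332), -0.44 without HHcy 5 and HHcy 6 (limma adjusted p 0.678) and -0.27 with the 3'/5' ratio in the model. CPT1A, the outer-membrane enzyme that loads acyl groups onto carnitine, had signals of 802 to 1154 in controls and 775 to 1261 in HHcy and a log2 fold change of 0.15 ± 0.25 (SE, limma adjusted p 0.762). Its highest signal came from HHcy 6, the array lowest for CPT2.

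Acyl-CoA dehydrogenases carry out the first step of each round. ACADM, for medium chains, had signals of 28293, 26849, 18736 and 18890.3 in controls 1 to 4 and of 24205, 12559.9, 23388 and 22519 in HHcy 5 to 8. Only HHcy 6, at 54.2% of the control mean, lay outside the control range. The ACADM log2 fold change was -0.19 with all arrays (limma adjusted p 0.734) and 0.037 without HHcy 6 (95% interval -0.37 to 0.45). ACADSB, for short branched chains, had 1890.2 to 2659 in controls and 2160.3 to 2726 in HHcy, with HHcy 6 at 104% of the control mean, and a log2 fold change of 0.081 ± 0.22 (SE, 95% interval -0.40 to 0.57, limma adjusted p 0.865). ACAD9, which also serves the assembly of respiratory complex I, had a log2 fold change of -0.066 (limma adjusted p 0.938).

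The later steps of beta-oxidation held the gene with the lowest p of the 30. HADH, the 3-hydroxyacyl-CoA dehydrogenase for short and medium chains, had signals of 3906, 9591, 5333 and 6312 in controls 1 to 4 and of 2469.6, 1284, 3152 and 4175 in HHcy 5 to 8. HHcy 5, 6 and 7 lay under every control, and HHcy 8 lay above control 1 only. The mean was 6285 ± 2415 in controls against 2770.1 ± 1213 in HHcy (SD, n = 4 per group). On the log2 scale HADH differed by -1.22 ± 0.38 (SE, 95% interval -2.05 to -0.39), a 2.33-fold lower level that did not pass (limma adjusted p 0.171, unadjusted p 0.00752). The difference was -0.90 without HHcy 6 (limma adjusted p 0.221), -0.71 without HHcy 5 and HHcy 6 (limma adjusted p 0.609) and -0.38 with the 3'/5' ratio in the model (limma adjusted p 0.933). HADH has 1 probe set, so there was no second reading of it.

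HADHA and HADHB are the subunits of the trifunctional protein, which carries out these steps for long chains. HADHA read 9972 to 15264 on HHcy 5, 7 and 8 and 4767 on HHcy 6, against 5673 to 13313 in controls, with a log2 fold change of 0.034 ± 0.38 (SE, limma adjusted p 0.970). That fold change turned below 0 without control 2, without HHcy 5 and without HHcy 7. It also did so with median scaling, as the median of all probe sets did. HADHB read 11516 to 14316 on HHcy 5, 7 and 8 and 3017 on HHcy 6, against 8635 to 14964 in controls, with -0.43 ± 0.44 (SE, limma adjusted p 0.609) and 0.084 without HHcy 6. For both genes HHcy 6 was the one array under every control. A dimmer HADHB probe set, at 58.1 to 749 in controls and 29.7 to 138 in HHcy, gave -1.38 (limma adjusted p 0.276). Whether HADH differed in its response from these genes was not tested.

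DECR1, the dienoyl-CoA reductase needed for unsaturated chains, had signals of 3183, 3481, 4952 and 5191 in controls 1 to 4 and of 2672, 655, 2301 and 5318 in HHcy 5 to 8. HHcy 5, 6 and 7 lay under every control and HHcy 8 above them all. Its log2 fold change was -0.92 ± 0.50 (SE, limma adjusted p 0.353), and its other 3 probe sets gave -0.83 to -0.73. ECHS1, the short-chain enoyl-CoA hydratase, had -0.47 ± 0.30 (SE, limma adjusted p 0.419), and ACAA2, the mitochondrial thiolase, -0.46 ± 0.28 (SE, limma adjusted p 0.398). For both, HHcy 5 and HHcy 6, the arrays of highest 3'/5' ratio, lay under every control. ACAA1, the peroxisomal thiolase, had -0.39 with all arrays and -0.69 without HHcy 6 (limma adjusted p 0.594 and 0.363). ECI2, an enoyl-CoA isomerase, had 0.36 (limma adjusted p 0.617), and its second probe set -0.14. Of the 8 genes of these steps, 6 had a fold change below 0, with a median of -0.45.

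**Figure D4:**
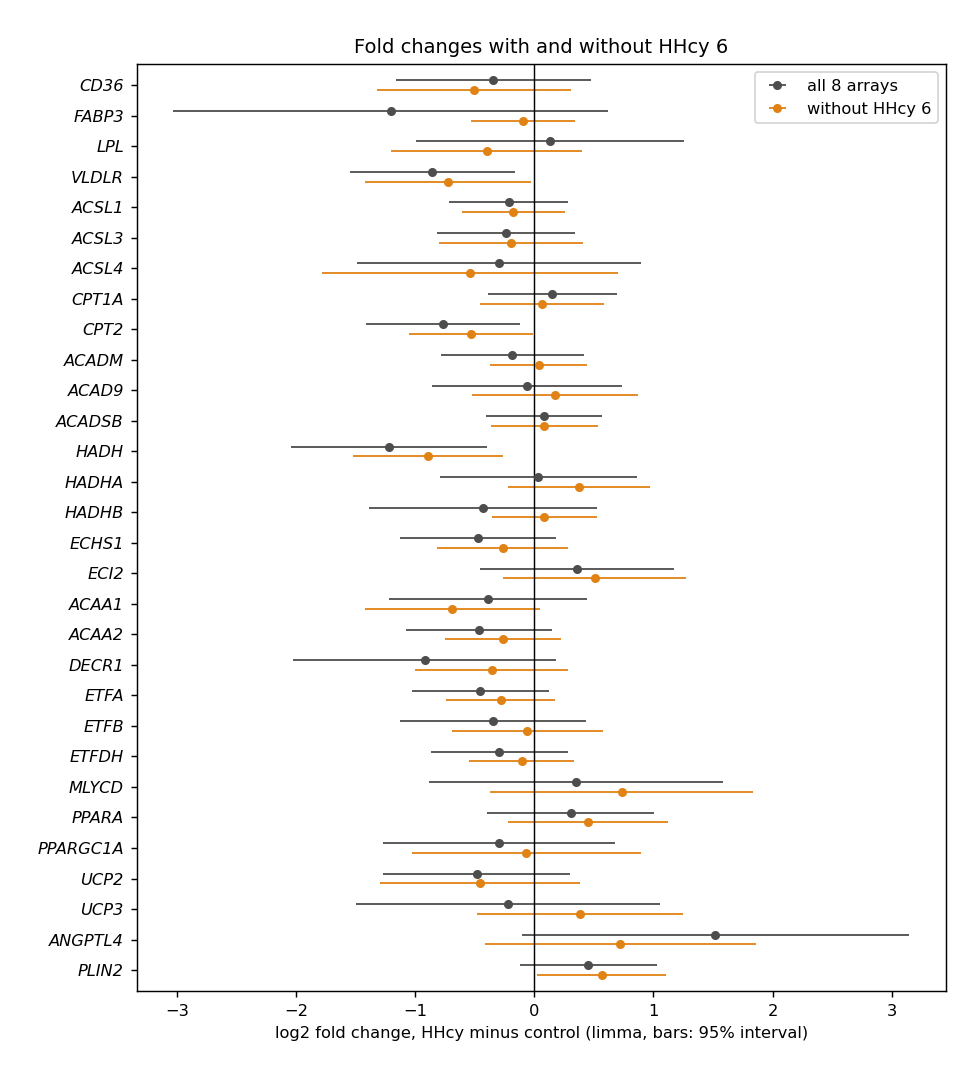
Log2 fold change of each gene, HHcy minus control, with its 95% interval from limma, for all 8 arrays and without HHcy 6. The intervals of HADH, CPT2 and VLDLR lie below 0 in both fits, with values of -1.22, -0.77 and -0.86 for all arrays, while FABP3 moves from -1.21 to -0.094.

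Electron transfer flavoprotein accepts electrons from the acyl-CoA dehydrogenases. ETFA, its alpha subunit, had signals of 8156, 6075, 9269 and 7196 in controls 1 to 4 and of 7199.98, 3869, 4866 and 6893 in HHcy 5 to 8. HHcy 6 and HHcy 7 lay under every control. ETFA had a log2 fold change of -0.45 ± 0.26 (SE, limma adjusted p 0.380), ETFB, the beta subunit, one of -0.35 (limma adjusted p 0.612), and ETFDH, which passes the electrons to ubiquinone, one of -0.29 (limma adjusted p 0.560). The 6 probe sets of ETFDH ran from -1.34 to 0.25. On the lowest, singled out after its values were seen, the groups did not overlap, at 138 to 229 in controls and 12.2 to 89.7 in HHcy (limma adjusted p 0.173).

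MLYCD removes malonyl-CoA, the inhibitor of carnitine loading. Its signals were 4591, 741, 3966 and 4212 in controls 1 to 4 and 5264, 1577, 4594 and 4031 in HHcy 5 to 8. Control 2 and HHcy 6 were low, and the other arrays lay between 3966 and 5264. MLYCD had a log2 fold change of 0.35 ± 0.56 (SE, limma adjusted p 0.758), and -0.27 without control 2.

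PPARA and PPARGC1A stood for the regulators. PPARA had signals of 1005, 481, 1038 and 1014 in controls 1 to 4 and of 1231, 772, 862 and 1487 in HHcy 5 to 8. Control 2 was the lowest, and HHcy 5 and HHcy 8 lay above every control. PPARA had a log2 fold change of 0.31 ± 0.32 (SE, 95% interval -0.40 to 1.01, limma adjusted p 0.622), turning below 0 only with median scaling, as the median of all probe sets did, and its other tested probe sets gave 0.34 and 0.36. PPARGC1A had 54.7 to 214 in controls and 57.0 to 169 in HHcy, with -0.30 ± 0.45 (SE, limma adjusted p 0.738), while its second probe set gave 0.88 (limma adjusted p 0.3998).

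The 4 PPAR targets were split, with 2 fold changes above 0 and 2 below. ANGPTL4, a secreted inhibitor of LPL, had signals of 89.2, 149, 129.7 and 77.7 in controls 1 to 4 and of 314, 1977, 369.9 and 53.9 in HHcy 5 to 8. HHcy 5, 6 and 7 lay above every control, HHcy 6 by the widest margin, and HHcy 8 lay under every control. The ANGPTL4 log2 fold change was 1.52 ± 0.74 (SE, 95% interval -0.11 to 3.14, limma adjusted p 0.306). It was 0.72 without HHcy 6 (limma adjusted p 0.524) and 2.28 without HHcy 8 (limma adjusted p 0.119), and 0.0019 with the 3'/5' ratio in the model.

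PLIN2, a coat protein of lipid droplets, had signals of 1055, 778, 1269 and 1119 in controls 1 to 4 and of 1215, 1126, 1899.9 and 1608 in HHcy 5 to 8. HHcy 7 and HHcy 8 lay above every control. PLIN2 had a log2 fold change of 0.45 ± 0.26 (SE, limma adjusted p 0.379), and 0.56 without HHcy 6 (limma adjusted p 0.322, unadjusted p 0.0413). On a second probe set, singled out after its values were seen, signals were 271, 199.9, 389 and 422 in controls 1 to 4 and 784, 1307, 662 and 609 in HHcy 5 to 8. There the groups did not overlap, and the log2 fold change was 1.31 ± 0.32 (SE, limma adjusted p 0.137, unadjusted p 0.00165). The third, dim PLIN2 probe set gave -0.56. PLIN2 is also made in macrophages, whose 10 markers found summed to 13856 to 27003 in HHcy and 7175 to 10636 in controls, none of them at 0. Of those markers 8 were higher at an unadjusted p under 0.05 in limma, beside 11.9% of all probe sets, and 0 at an adjusted one. MRC1 and C1QA were not among the 8, with log2 fold changes of 0.27 and 0.13. The part of the macrophage markers in the PLIN2 values was not tested.

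The uncoupling proteins, carriers of the inner mitochondrial membrane, varied widely. UCP3, the muscle form, had 1127 to 3392 in controls and 4479, 453, 2182 and 1646 in HHcy 5 to 8, so that HHcy held both the highest and the lowest array, with a log2 fold change of -0.22 ± 0.58 (SE, 95% interval -1.50 to 1.05, limma adjusted p 0.857). UCP2 had 139.7 to 377 in controls and 108 to 236 in HHcy, with -0.48 ± 0.36 (SE, limma adjusted p 0.478).

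Over all readings, 59 probe sets of the 30 genes could be tested, of which 6 were lower and 1 higher at an unadjusted p under 0.05 and 0 passed the adjusted threshold in limma, beside 5.94% lower and 11.9% higher of all probe sets. Probe sets of 1 gene are not independent. Of the 17 genes with several probe sets, 8 had tested ones of opposite sign.

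On HHcy 6 the genes of this route did not move alike. FABP3 was at 4.12% of its control mean, DECR1 at 15.6%, HADH at 20.4%, UCP3 at 21.4% and HADHB at 24.7%. ACSL1 was at 78.8%, ECI2 at 85.7%, ACADSB at 104% and CPT1A at 133%, on an array whose cardiomyocyte markers summed to 6.38%. LPL, at 313%, and ANGPTL4, at 1773%, lay on the other side. With 1 dog there is no replicate for these shares, and each rests on 1 probe set. Another ECI2 probe set read 1003 on HHcy 6, under every control (1579 to 2468). Other ACSL1 readings there ran from under every control (175 against 286 to 769) to above every control (273 against 86.2 to 226). Those of LPL were 244, inside the control range of 46.3 to 393, and 203, above that of 9.09 to 183. All probe sets of FABP3 and DECR1 lay under every control there.

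**Figure D5:**
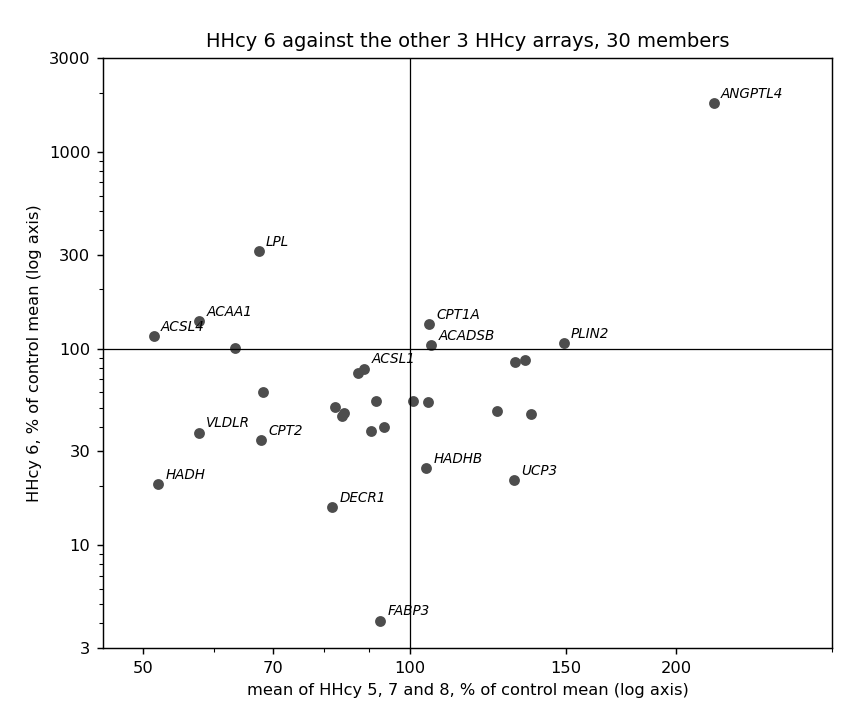
Signal of each of the 30 genes on HHcy 6 against the mean of HHcy 5, 7 and 8, both as a percentage of the control mean on logarithmic axes. Along the horizontal axis the genes run from 51.3% for ACSL4 to 220.5% for ANGPTL4, and along the vertical axis from 4.12% for FABP3 to 1773% for ANGPTL4.

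Other genes of fatty acid metabolism and PPAR action came from a list of 95 names, of which 50 were found and 44 were bright enough to test. None passed the adjusted threshold in limma, and 6 were higher and 1 lower at an unadjusted p under 0.05, beside 11.9% and 5.94% of all probe sets. Their median log2 fold change was 0.24, beside 0.15 for all probe sets, with 31 of 44 above 0. Among the 6 higher, PPARG, ABCD2 and RXRB were bright enough to test only through their HHcy signals. The counts and medians of this list are therefore given as descriptions. The same medians were 0.086 and 0.10 without HHcy 6, and -0.14 and -0.18 with median scaling. DGAT2, also among the 6 higher, read 17816 on HHcy 6 and 413 to 619.6 on the remaining HHcy arrays. Its log2 fold change was 2.41 with all arrays (limma adjusted p 0.247) and 1.14 without HHcy 6 (limma adjusted p 0.279).

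PPARG, the PPAR of fat cells, had signals of 193, 34.7, 8.28 and 97.1 in controls 1 to 4 and of 198, 984, 123 and 180.2 in HHcy 5 to 8. HHcy 6 was the highest and the ranges overlapped. PPARG had a log2 fold change of 1.77 ± 0.68 (SE, limma adjusted p 0.222) and 1.16 without HHcy 6 (limma adjusted p 0.375). A second PPARG probe set read 77.3 to 129 in controls, 87.0 to 111 on HHcy 5, 7 and 8 and 988 on HHcy 6, the only HHcy array outside the control range on it, and gave 0.66 (limma adjusted p 0.583). ABCD2, a peroxisomal transporter of very long acyl chains, had 9.99 to 59.6 in controls and 69.1 to 502 in HHcy without overlap, with 1.74 ± 0.59 (SE, limma adjusted p 0.190). Its controls were dim, and it could be tested in 12 of the 19 alternatives, not without HHcy 6. RXRB, a retinoid X receptor of the family that pairs with PPARs, had 15.8 to 113 in controls and 127 to 253 in HHcy without overlap, with 1.12 ± 0.44 (SE, limma adjusted p 0.230). The control means of PPARG, ABCD2 and RXRB lay under the brightness filter, so these genes were tested only because their HHcy signals were higher, and their differences are given as descriptions. NCOA2, a nuclear receptor coactivator, was the 1 gene of these that was lower, at 183 to 250.05 in HHcy and 251 to 1089 in controls without overlap, with -1.04 ± 0.38 (SE, limma adjusted p 0.210). A second NCOA2 probe set, on which the groups overlapped, gave -1.04 (limma adjusted p 0.212).

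ACSL5, another acyl-CoA synthetase, had 238 to 289 in controls and 289 to 588 in HHcy, HHcy 8 falling level with control 2, with 0.71 ± 0.27 (SE, limma adjusted p 0.222), and 0.63 (limma adjusted p 0.483) on a second probe set. ACOT7, an acyl-CoA thioesterase, had 1.08 ± 0.45 (SE, limma adjusted p 0.247), and its other probe sets gave 0.95 (limma adjusted p 0.262) and 0.19 (limma adjusted p 0.803). PDK4, a PPAR target that restrains pyruvate oxidation, had signals of 6282, 6921, 5341 and 9952 in controls 1 to 4 and of 15419, 4440.3, 14536 and 5397 in HHcy 5 to 8. HHcy 5 and HHcy 7 lay above every control and HHcy 6 under every control, and the log2 fold change was 0.30 ± 0.41 (SE, limma adjusted p 0.711).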

How the data were processed

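Samples were grouped by their titles, 4 control and 4 HHcy dogs. The deposited intensities, 1 per probe set on a linear scale, were produced by the authors with a tool that the submitters' processing notes name as MAS5; version and detection calls are not given in the sources used here. Symbols came from the platform annotation, and 28 of the 30 genes matched the RefSeq gene table by identifier. Sequences, promoter motifs and coordinates were not analysed here.

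To each value 24 was added, the 20th percentile of the whole table, before taking log2, which understates changes of dim genes. Then 77 control probe sets and the dimmest 40% were removed. limma (version 3.58.1, R version 4.3.3; lmFit, then eBayes with trend) was run on 14301 probe sets, with Benjamini-Hochberg adjustment across all of them; the script was tested on simulated data. There were 19 alternatives: scaling, pseudocount, filter, variance model, array weights, gene means, arrays left out and the mean log2 3'/5' ratio in the model.

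Genes, lists and alternatives were chosen with earlier results of these data known. Values on every array are given for genes at an unadjusted p under 0.05 or without overlap and for the lowest p in each role; FABP3, DECR1 and PLIN2 were added after their values were seen. Other pathway genes named are the 6 of lowest p and PDK4, and, after their values were seen, DGAT2, CIDEA, LIPE, DGAT1 and ACACA. The dogs are separate animals, and the number of arrays limits the precision.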

Additional observations from a re-analysis of the deposited data

Results flagged for a closer look

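In 7 of 60 groups of 4 arrays checked, 1 array lay far from the rest on the log2 scale, by a rule that flags about 1 in 20 independent groups by chance. The groups here are 30 genes read on the same 8 arrays and are not independent. The count of 7 therefore cannot be set against that share. For 5 genes the array far from the rest was HHcy 6. Its signal was 1205 for FABP3 (23819 to 31815 on the remaining HHcy arrays), 12559.9 for ACADM (22519 to 24205), 1404 for ACAD9 (2540.2 to 2858) and 3017 for HADHB (11516 to 14316), all low, and 1339.8 for LPL (265 to 310.1), which was high. For 2 genes it was control 2, at 741 for MLYCD (3966 to 4591 on the remaining controls) and 481 for PPARA (1005 to 1038). The mean log2 3'/5' ratio was -0.43 on control 2, the lowest of the 8 arrays, and 6.31 on HHcy 6, the highest; its part in these values was not tested.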

How the results depend on the processing

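None of the 30 genes and none of the 44 other pathway genes had a limma adjusted p under 0.05 in any of the 19 alternatives that kept them. The median log2 fold change of the 30 was -0.58 with median scaling, -0.078 without HHcy 5 and HHcy 6, 0.042 when the model held the 3'/5' ratio, and ran from -0.35 (without control 3) to -0.099 (without HHcy 6) with 1 array left out. The 14 probe sets passing over the whole array became 7 with quantile scaling, 22 with median scaling, 9 with the dimmest 60% removed, 76 with array weights, 8 with gene means, 5 without HHcy 5 and HHcy 6, and 5 when the model held the 3'/5' ratio. With 1 array left out they numbered from 3 (without control 2 or control 4) to 31 (without HHcy 8), with 9 without control 1, 4 without control 3 and 5 without HHcy 5. Of the 30 genes, 14 kept the sign of their fold change wherever tested, HADH, CPT2 and VLDLR among them, and 16 did not. Median scaling moved the median of all probe sets from 0.15 to -0.18. CPT1A, PPARA and PDK4 turned under it alone, so their sign depends on where the values of each array are centred. The log2 fold change turned as follows, none passing before or after. With the 3'/5' ratio in the model, a ratio that goes partly with the group, it was 0.55 for FABP3, -0.50 for LPL, 0.21 for ACADM, 0.10 for ACAD9, 0.23 for HADHB, 0.071 for ACAA2, 0.073 for DECR1, 0.079 for ETFB, 0.056 for PPARGC1A and 0.42 for UCP3. With median scaling it was -0.22 for LPL, -0.21 for CPT1A, -0.28 for ACADSB, -0.33 for HADHA, -0.0062 for ECI2, -0.0098 for MLYCD, -0.051 for PPARA and -0.061 for PDK4. With array weights it was -0.17 for LPL, 0.075 for ACADM, 0.0011 for PPARGC1A and 0.090 for UCP3. With gene means it was -0.32 for LPL and -0.019 for ACADSB. Without HHcy 5 and HHcy 6 it was -0.40 for LPL, 0.011 for ACADM, 0.23 for ACAD9 and 0.13 for ETFB. With quantile scaling it was 0.021 for ACAD9. With 1 array left out it ranged over -0.40 to 0.38 for LPL, -0.28 to 0.037 for ACADM, -0.41 to 0.17 for ACAD9, -0.023 to 0.15 for ACADSB, -0.21 to 0.37 for HADHA, -0.66 to 0.084 for HADHB, -0.026 to 0.54 for ECI2, -0.27 to 0.74 for MLYCD and -0.70 to 0.38 for UCP3. In limma, HADH, CPT2 and VLDLR had an unadjusted p under 0.05 in 17, 16 and 14 of the 19 alternatives. None of them had one without HHcy 5 and HHcy 6, or with the 3'/5' ratio in the model. The unadjusted p of VLDLR was also 0.0562 without control 2, 0.0531 without HHcy 7 and 0.0589 with array weights, and that of CPT2 0.0661 without control 4. The cause of these shifts was not tested. No paired analysis was possible because the controls are numbered 1 to 4 and the HHcy dogs 5 to 8. With 4 arrays per group, standard errors of the 30 genes ran from 0.22 to 0.83 on the log2 scale.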

Other observations

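DGAT2, CIDEA and PCK1 were singled out after their values were seen, for their signals on HHcy 6, where 45.6% of all probe sets lay above every control. DGAT2, which makes triglyceride, read 17816 there, 413 to 619.6 on the remaining HHcy arrays and 122 to 573 in controls. CIDEA, a lipid droplet protein, read 13702, 224 to 407 and 85.1 to 356 in the same order. PCK1, which feeds glycerol synthesis in fat cells, read 4980.1, 53.1 to 184 and 5.42 to 133. Other genes of fat metabolism lay inside the control range on HHcy 6, among them DGAT1, at 302 against 67.9 to 343, and ACACA, at 157 against 27.4 to 172.

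LIPE, hormone-sensitive lipase and a gene of the adipocyte marker list, was also singled out after its values were seen. It had 129, 265, 181 and 124 in controls 1 to 4 and 30.7, 174, 83.4 and 69.1 in HHcy 5 to 8. HHcy 5, 7 and 8 lay under every control. HHcy 6 lay inside the control range. Its log2 fold change was -0.91 ± 0.43 (SE, limma adjusted p 0.296, unadjusted p 0.0588) with all arrays and -1.23 ± 0.41 (SE, limma adjusted p 0.236) without HHcy 6. A UCP2 probe set too dim to be tested, singled out in the same way, read 67.1 to 201 in controls and 6.07 to 23.7 in HHcy. Every HHcy value on it lay under the 24 units added. Of all probe sets tested, 3.89% were lower in HHcy without overlap. On the brighter UCP2 probe sets the groups overlapped, with log2 fold changes of -0.48 and -0.76 (limma adjusted p 0.478 and 0.333).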
